A study of Mus musculus with 15 samples.

Results

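Oligodendrocyte precursor cells (OPCs) are the dividing glial cells of the brain from which the myelin-making oligodendrocytes (OLs) arise. The data described here are polyA RNA profiles of OPC cultures that lost the gene for serum response factor (SRF), set against control OPC cultures. They are 7 of the 15 libraries of the series, all of those titled control OPC (4) or SRF-KO OPC (3), and the remaining 8 are from differentiated cells. All 7 cultures were primary OPCs taken by immunopanning, that is, caught on antibody-coated dishes, from brains of SRF-floxed/floxed mice, so the controls carry the floxed alleles too. The SRF-KO cells received AAV DJ-CMV eGFP-cre, an adeno-associated virus that drives the Cre recombinase from the CMV promoter, which is active in most cell types. The control cells received AAV DJ-CMV eGFP-deleted cre, the same vector with a deleted Cre. Virus was given in suspension in proliferation medium on the day of replating, and plates were frozen 48 hours after infection. No culture had active Cre without floxed alleles, so effects of Cre and of losing Srf cannot be told apart. The labels do not say which exon is floxed, nor whether replicates came from separate animals or cultures, and p-values therefore measure only the spread between these libraries, which may be technical.

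SRF is a DNA-binding factor that sits on a short sequence called the CArG box and takes its activity from partners. With MRTF, a cofactor released when actin polymerises, it switches on genes of the actin cytoskeleton. With ternary complex factors such as ELK1, which are phosphorylated by ERK, it switches on immediate-early genes, the first to respond to growth factors. OPCs in culture divide under growth factors and extend actin-rich processes. The comparison asks which transcripts differ in dividing precursors once Cre has acted for 48 hours.

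The libraries held 8964310 to 16026511 expected counts in controls and 9074812 to 15125229 in knockouts, and mitochondrially encoded genes took 4.65% to 5.73% of them. On the first principal component (27.3% of the variance) SRF-KO OPC replicate 2 lay at 47.6 and the other 6 libraries between -23.0 and 6.01, and counts below are given with and without it where it matters. OPC markers were abundant in every library: Pdgfra, the PDGF receptor that keeps OPCs dividing, had 110 to 148 TPM (a level scaled by transcript length and library depth) and Olig1, a lineage transcription factor, 1522 to 2738. Mog, a mature myelin gene, the microglial genes Cx3cr1, Aif1 and Tyrobp, the endothelial genes Cldn5, Pecam1 and Cdh5 and the fibroblast gene Dcn were at 0 in 7 of 7 libraries. Other markers of these cell types were not all at 0. Col1a1 of fibroblasts reached 1.07 TPM, Ptprc of microglia 0.16 and Mag of mature oligodendrocytes 0.28. The neuronal genes Snap25 and Syt1 were present in every library, at 4.95 to 7.73 and 0.95 to 2.04 TPM. The astrocyte gene Gfap was present at 23.2 to 46.1 TPM. The cultures thus carried the OPC markers of their label, with low levels of some markers of other cells.

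Srf was almost absent from the knockout libraries. In normalised CPM (counts scaled to a common depth with TMM factors within these 7 libraries), it had 7.91, 5.57, 9.67 and 8.34 in control replicates 1 to 4 and 0.221, 0.196 and 0.215 in knockout replicates 1 to 3. The pooled reads were 379 in controls and 7 in knockouts. Every knockout library lay far below every control. The log2 fold change, always knockout over control, was -5.16 (SE 0.40, edgeR quasi-likelihood test, adjusted p = 0.000569). The gene lies on the minus strand at 46548329 to 46556175 of chromosome 17 in GRCm38, and since the reads carry no strand, those of the antisense lincRNA Gm26904, which covers the locus, cannot be separated from its own.

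CArG boxes were searched in RefSeq promoters of build GRCm38.p6, 300 bases from 250 before to 50 after each annotated start. The box has the same form on both strands, so 1 search covers both, and it was matched exactly. Of 32851 promoters, 535 (1.63%) hold one. The windows below are those of Srf itself, of 3 SRF-MRTF targets and Egr2, which are described further on with their values, and of Actg1, Filip1l and Zfp36, target genes whose groups overlapped. Each is 30 bases, 5′ to 3′ on the strand of its gene, with the box in capitals.
Srf, chr17:46556225-46556254, minus strand: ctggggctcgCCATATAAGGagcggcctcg
Srf, chr17:46556205-46556234, minus strand: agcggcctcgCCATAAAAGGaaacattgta
Lima1, chr15:99820177-99820206, minus strand: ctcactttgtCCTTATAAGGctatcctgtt
Cnn2, chr10:79988534-79988563, plus strand: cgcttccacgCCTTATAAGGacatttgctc
Actc1, chr2:114052903-114052932, minus strand: gctaaggcgaCCAAATAAGGcaaggtggca
Egr2, chr10:67537484-67537513, plus strand: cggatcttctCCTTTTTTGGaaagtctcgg
Egr2, chr10:67537787-67537816, plus strand: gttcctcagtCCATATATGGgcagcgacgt
Actg1, chr11:120348566-120348595, minus strand: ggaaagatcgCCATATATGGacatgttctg
Filip1l, chr16:57549170-57549199, plus strand: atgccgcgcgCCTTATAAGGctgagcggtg
Zfp36, chr7:28379267-28379296, minus strand: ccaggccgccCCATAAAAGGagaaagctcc
Lima1, Cnn2 and Filip1l share the same box letters, and so do one box of Egr2 and that of Actg1. A match describes the letters only and is not evidence of binding in these cells. Promoters were found for 74.3% of the 13271 genes tested, under the 80% needed, so a comparison of genes with and without a box over all genes is void and was not made.

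Across 13271 genes that passed the filter on low counts, 9 were called at a Benjamini-Hochberg adjusted p under 0.05 in edgeR's quasi-likelihood test (0.0678%). They were 3 genes that rose (0.0226%) and 6 that fell (0.0452%). Before adjustment, 739 genes were higher (5.57%) and 840 lower (6.33%) at p under 0.05. The groups did not overlap, meaning that every knockout library lay on one side of every control, for 791 genes in the higher direction (5.96%) and 829 in the lower (6.25%). The median log2 fold change over all genes was -0.00, and 253 genes moved by more than 1 on the log2 scale. The call count was small under this test and depended on the method: DESeq2 called 70 higher (0.610%) and 69 lower (0.602%). These 2 shares are of the 11470 genes to which DESeq2 gave an adjusted p, not of all 13271. Srf was the 1 gene called without each of the 7 libraries in turn; the other 8 were called in 0 to 2 of those 7 fits, with the same sign in all of them.

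**Figure D1:**
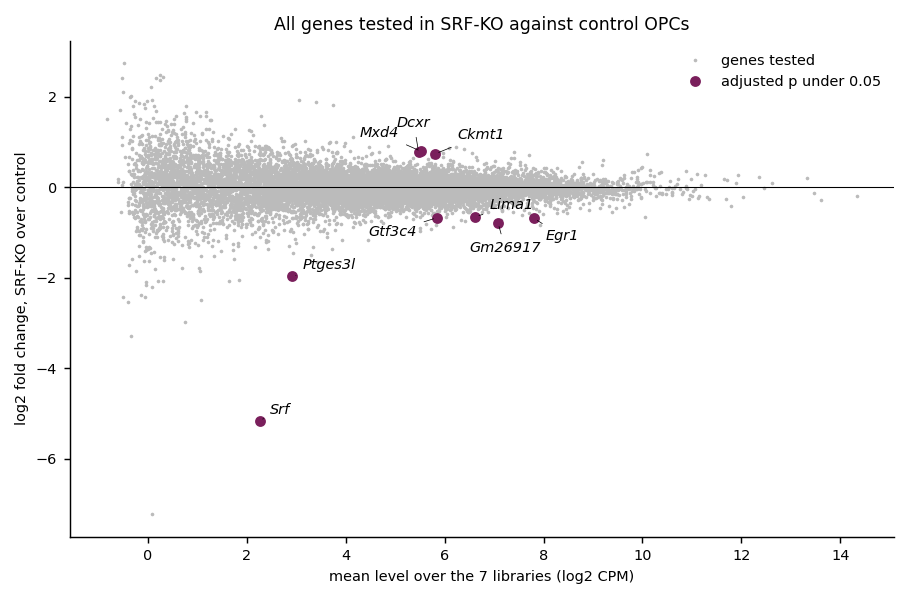
Each point is 1 of the 13271 genes tested, with its mean level over the 7 OPC libraries (log2 CPM, x axis) and its log2 fold change of SRF-KO over control (y axis). The 9 named points have an adjusted p under 0.05, and Srf at -5.16 lies lowest of them; the unnamed point at -7.22 is Cds1, which had no reads in the knockouts and was not called.

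Egr1 encodes a zinc-finger transcription factor and is a classic immediate-early target of SRF. It lies on chromosome 18 (34859823 to 34864984, plus strand). It had 282, 273, 260 and 259 CPM in control replicates 1 to 4 and 156, 169 and 175 in the knockouts. The lowest control was well above the highest knockout. Egr1 fell by 0.69 on the log2 scale (SE 0.08, edgeR adjusted p = 0.0152).

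Lima1 is an SRF-MRTF target whose LIM-domain protein bundles actin filaments. It lies on chromosome 15 (99778470 to 99875456, minus strand), overlaps the antisense models Gm17057 and Gm17058, and has 1 of the CArG boxes printed above. Its control values were 120, 122, 117 and 107 CPM and its knockout values 71.0, 74.1 and 78.0. Controls and knockouts formed separate groups, each tight. Lima1 fell by 0.65 on the log2 scale (SE 0.09, edgeR adjusted p = 0.0300).

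Ptges3l, a gene named for its likeness to the co-chaperone Ptges3, showed the steepest fall of the called genes after Srf. It had 10.1, 11.5, 10.5 and 10.8 CPM in controls and 1.88, 3.67 and 2.47 in knockouts, a log2 fold change of -1.97 (SE 0.25, edgeR adjusted p = 0.0214). It lies on chromosome 11 (101418812 to 101425333, minus strand), where 5985 of its bases are shared with the protein-coding model Gm27029 on the same strand. Gm27029 itself had 17.1 CPM in controls and 11.3 in knockouts (a log2 fold change of -0.59, adjusted p = 0.228 in edgeR). How RSEM divided the shared reads was not tested, so the value of Ptges3l is uncertain.

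Gtf3c4 encodes a subunit of TFIIIC, the factor that recruits RNA polymerase III to transfer RNA genes. It had 68.8, 66.8, 68.9 and 68.5 CPM in controls, a very narrow range, and 39.6, 43.1 and 45.8 in knockouts. Gtf3c4 fell by 0.67 on the log2 scale (SE 0.09, edgeR adjusted p = 0.0300; chromosome 2, 28822299 to 28840360). Of the 22 TFIIIC and polymerase III genes tested it was the only one lower without overlap (4.55%, against 6.25% of all genes). The list's median was -0.00. Its partner subunits Gtf3c1, Gtf3c2, Gtf3c3, Gtf3c5 and Gtf3c6 had log2 fold changes of -0.11, -0.05, 0.01, -0.14 and 0.10, none of them past an unadjusted p of 0.05.

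Gm26917, a long non-coding RNA model on chromosome 17 (39843013 to 39846341), was the remaining gene that fell. It had 194, 160, 146 and 160 CPM in controls and 108, 86.2 and 92.7 in knockouts. The log2 fold change was -0.79 (SE 0.12, edgeR adjusted p = 0.0342).

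Among the genes that rose, Mxd4 encodes a repressor that competes with MYC for their shared partner MAX and is linked to exit from division. It had 34.4, 34.8, 35.7 and 35.6 CPM in controls and 57.3, 65.5 and 59.5 in knockouts. It rose by 0.79 on the log2 scale (SE 0.09, edgeR adjusted p = 0.0152; chromosome 5, 34173883 to 34187720). Of the 11 MYC and MXD network genes tested, it alone did not overlap between the groups (9.09%, against 5.96% of all genes in the higher direction). Myc and Max had log2 fold changes of -0.17 and -0.38 with overlapping groups.

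Ckmt1 encodes a mitochondrial creatine kinase, which stores energy from ATP as phosphocreatine. Its values were 43.9, 49.8, 42.3 and 38.1 CPM in controls and 71.6, 76.9 and 70.1 in knockouts, so the groups were well apart. Ckmt1 rose by 0.74 (SE 0.11, edgeR adjusted p = 0.0342; chromosome 2, 121357714 to 121363737), and the cytosolic kinase Ckb had a log2 fold change of 0.09. The other creatine genes tested, Gatm, Gamt and Slc6a8, all overlapped between the groups. Dcxr, a sugar and dicarbonyl reductase on the list of p53 targets, had 37.6, 36.0, 32.0 and 30.3 CPM in controls and 55.7, 63.3 and 55.3 in knockouts. It rose by 0.77 (SE 0.11, edgeR adjusted p = 0.0342; chromosome 11, 120725399 to 120727281).

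**Figure D2:**
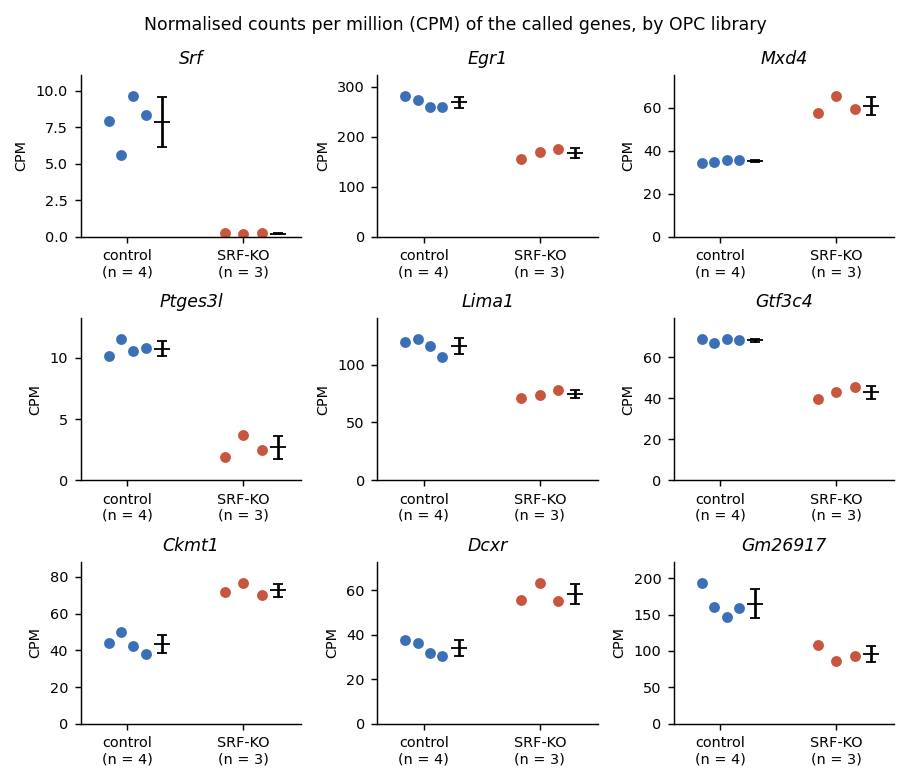
Points are CPM (y axis, from 0) in the single OPC libraries, 4 control and 3 SRF-KO, for the 9 called genes; black marks are the mean and SD of each group. In each panel the groups do not overlap, with Srf below 0.3 CPM in the knockouts.

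The genes just outside the threshold were Gem, Egr2 and Clu. Gem encodes a small RGK GTPase that inhibits calcium channels; it had 2.69, 2.98, 2.64 and 2.06 CPM in controls and 7.95, 7.40 and 7.84 in knockouts (a log2 fold change of 1.57, SE 0.24, adjusted p = 0.0532 in edgeR). Egr2, a relative of Egr1 with 2 of the boxes printed above, had 10.4, 16.3, 14.2 and 18.2 CPM in controls and 5.52, 5.30 and 3.11 in knockouts (a log2 fold change of -1.66, SE 0.26, adjusted p = 0.0559 in edgeR). Clu, the secreted chaperone clusterin, had 97.0, 120, 99.3 and 108 CPM in controls and 166, 153 and 160 in knockouts (a log2 fold change of 0.59, SE 0.09, adjusted p = 0.0559 in edgeR). In all 3 the groups were separate, and none passed.

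The SRF-MRTF list holds 38 actin cytoskeleton genes. Members of this and the other lists were chosen with earlier results of these data known. Their shares beside those of all genes are therefore descriptions and not tests. Of these, 31 passed the filter, and Acta1, Acta2, Actg2, Cnn1, Tagln, Lmod1 and Vil1, mostly genes of muscle and of brush border, did not. The median log2 fold change of the 31 was -0.20. At an unadjusted p under 0.05, 11 were lower and 1 higher, where 6.33% and 5.57% of all genes were. Without overlap, 10 were lower (32.3%, against 6.25% of all genes tested) and 1 higher (3.23%, against 5.96%). In the libraries taken singly, the list's median distance from the control mean was -0.18, -0.20 and -0.16 in knockout replicates 1 to 3 and -0.01 to 0.02 in the controls. Without knockout replicate 2 the lower count was 11, where 10.0% of all genes were lower without overlap.

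Within this list the members with the largest separated differences were regulators and adaptors of the filament. Cnn2, a calponin that binds actin and tropomyosin, had 12.8, 9.31, 8.13 and 10.2 CPM in controls and 4.86, 2.82 and 3.65 in knockouts (a log2 fold change of -1.45, SE 0.26, adjusted p = 0.0937 in edgeR). Tgfb1i1, the focal adhesion adaptor Hic-5, had 13.2, 14.4, 19.99 and 15.3 CPM in controls and 5.74, 7.20 and 8.91 in knockouts (a log2 fold change of -1.10, SE 0.21, adjusted p = 0.117 in edgeR). In each, the highest knockout was below the lowest control.

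The actins had smaller differences than these 2 genes. Actb, cytoplasmic beta-actin, had 4218, 4032, 3645 and 3891 CPM in controls and 3241, 2499 and 3209 in knockouts (a log2 fold change of -0.40, SE 0.09, adjusted p = 0.187 in edgeR). Actg1, cytoplasmic gamma-actin, ran from 4263 to 4662 CPM in controls and had 4308, 3311 and 3993 in knockouts, so its groups overlapped. Actc1, cardiac actin, had a log2 fold change of -0.94 at 6.49 to 9.37 CPM in controls and 2.90 to 6.18 in knockouts. Tagln2, Tpm4, Zyx, Vcl and Wdr1, which bind, stabilise, anchor or dismantle filaments, were lower without overlap by 0.29, 0.22, 0.29, 0.45 and 0.13 on the log2 scale in size, none of them called. Dstn, the actin-severing protein destrin, was the member higher without overlap, with 376, 393, 421 and 425 CPM in controls and 456, 488 and 461 in knockouts (a log2 fold change of 0.21, adjusted p = 0.317 in edgeR). Myh9, Tpm3, Actn4, Mical2 and Fhl1 had log2 fold changes between -0.04 and 0.02.

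CArG boxes lay in the promoters of 9 of the 29 tested SRF-MRTF members that have a promoter entry. Actb and Tgfb1i1 have no entry, so boxes could not be searched there. The same holds for Egr1, Arc, Ier2, Gem and Ptges3l outside this list. Of the 9, 4 were lower without overlap (Lima1, Cnn2, Actc1 and Vcl), and of the 20 with no box in this window 4 were too. Actg1, Myl9, Fhl2, Filip1l and Fhl1 have a box and overlapping groups. In that order their log2 fold changes were -0.20, -0.74, -0.74, 0.36 and 0.02, with an SE of 0.79 for Filip1l.

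The other cytoskeletal lists lay closer to the background. All 41 other actin assembly and turnover genes were tested, with a median log2 fold change of -0.06. Of these, 6 were lower without overlap (14.6%, against 6.25% of all genes) and 1 higher (2.44%, against 5.96%). Wasf1, an activator of the Arp2/3 complex that nucleates branched filaments, had 77.9, 75.2, 74.2 and 75.8 CPM in controls and 63.2, 48.5 and 64.4 in knockouts (a log2 fold change of -0.37, adjusted p = 0.263 in edgeR). The complex's own subunits Arpc4 and Actr3 had -0.21 and -0.20, lower without overlap. Of 23 tested focal adhesion and integrin genes, 0 were separated in either direction, 0 had an unadjusted edgeR p under 0.05 and the median was -0.07, which was -0.01 without knockout replicate 2, -0.02 without control replicate 4, -0.05 without control replicate 3 and -0.11 without knockout replicate 1.

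The immediate-early list holds 32 genes, of which 26 were tested; Egr3, Fosb, Klf2, Atf3, Npas4 and Ccn2 did not pass the filter. Their median log2 fold change was -0.22, and -0.39 without knockout replicate 3. At an unadjusted p under 0.05, 10 were lower and 3 higher, where 6.33% and 5.57% of all genes were. Without overlap, 9 were lower (34.6%, against 6.25% of all genes) and 3 higher (11.5%, against 5.96%). The list median relative to the control mean was -0.24, -0.34 and -0.17 in knockout replicates 1 to 3 and -0.05 to 0.12 in controls. The members did not move as one block.

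The lower members included the EGR genes. Besides Egr1 and Egr2, Egr4 had 2.84, 2.34, 1.65 and 2.49 CPM in controls and 0.110, 0 and 0.859 in knockouts (a log2 fold change of -2.98, SE 0.81, adjusted p = 0.226 in edgeR). Nab2, a corepressor that binds EGR proteins and is itself an EGR target, had 53.1, 48.3, 44.5 and 48.9 CPM in controls and 32.9, 23.6 and 33.7 in knockouts (a log2 fold change of -0.70, SE 0.14, adjusted p = 0.117 in edgeR). Nab2 and all 3 of these EGR genes were thus lower in every knockout library than in any control. Ier2 (log2 -0.49), Klf10 (-0.40), the orphan receptor Nr4a1 (-0.42), the AP-1 subunit Jund (-0.89) and Arc (-1.32), a neuronal activity gene with 12.6 to 15.2 CPM in controls and 3.01 to 7.95 in knockouts, were also lower without overlap. None of these was called.

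Other members lay near 0. Fos, Jun and Junb had log2 fold changes of 0.02, -0.10 and -0.13, and Ier3 and Klf6 -0.01 and 0.00, all with overlapping groups. Jun had 174, 164, 156 and 141 CPM in controls and 147, 139 and 158 in knockouts. Btg2, Fosl1 and Dusp1 were higher without overlap. Btg2, an antiproliferative gene that p53 also induces, had 131, 131, 132 and 149 CPM in controls and 170, 213 and 170 in knockouts (a log2 fold change of 0.45, SE 0.10, adjusted p = 0.187 in edgeR). Fosl1, an AP-1 subunit, had 3.06, 3.23, 3.40 and 3.01 CPM in controls and 7.07, 6.15 and 4.73 in knockouts (a log2 fold change of 0.91, SE 0.25, adjusted p = 0.245 in edgeR). Dusp1, a phosphatase that switches off MAP kinases, had a log2 fold change of 0.40. Of the 14 ERK feedback genes tested, such as Spry2 and Dusp6, 1 was lower without overlap (7.14%, against 6.25% of all genes). None of them had an unadjusted edgeR p under 0.05 in either direction. The SRF cofactors Mrtfa, Mrtfb, Elk1, Elk3 and Elk4 all overlapped between groups.

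**Figure D3:**
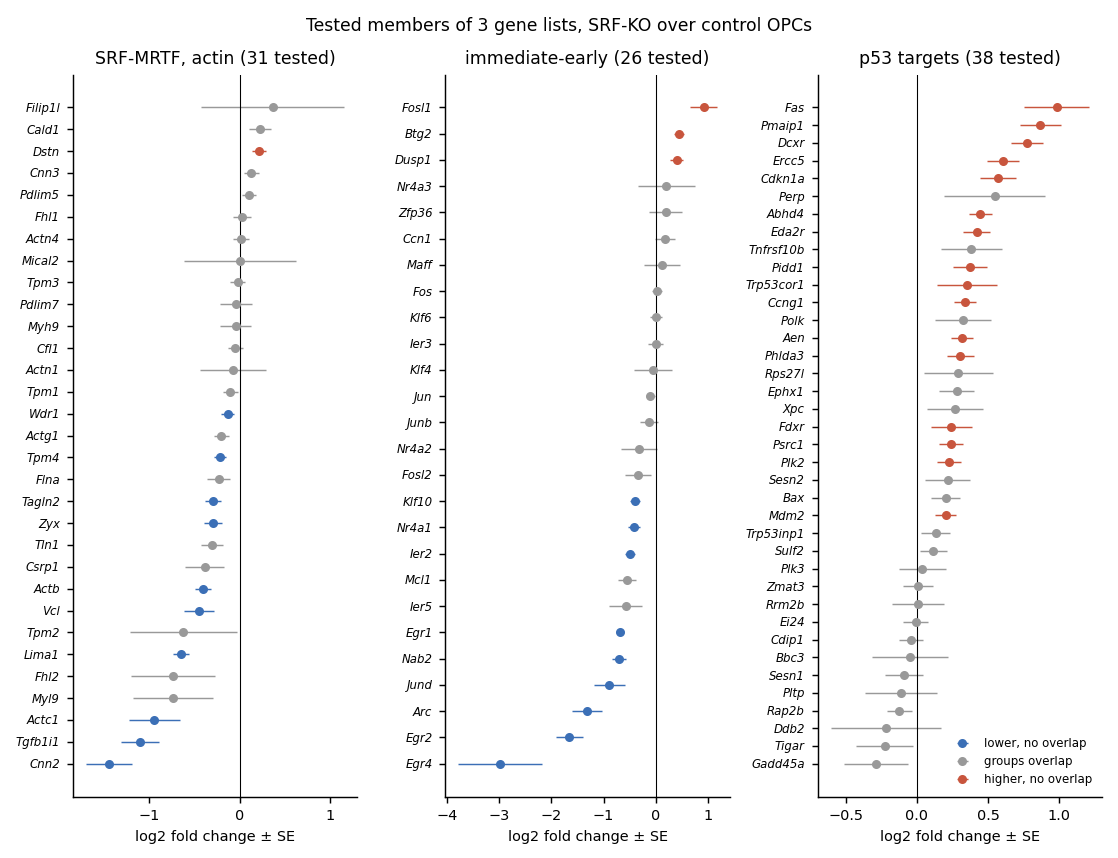
Log2 fold change of SRF-KO over control OPCs (x axis, bars are SE) for every tested member of 3 lists, sorted by value; blue points are members lower and red points members higher with no overlap between the 4 control and 3 SRF-KO libraries. The SRF-MRTF panel has 10 blue points and 1 red, the immediate-early panel 9 and 3, and the p53 panel 0 and 16; the x axes differ.

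The p53 target list lay higher in the knockouts. p53 is the transcription factor that DNA damage and other stresses stabilise, and its targets halt the cell cycle, repair DNA and promote apoptosis. All 38 members passed the filter. They too were chosen with earlier results of these data known, so the shares below describe the list and test nothing. Their median log2 fold change was 0.24. At an unadjusted edgeR p under 0.05, 15 were higher and 0 lower, where 5.57% and 6.33% of all genes were. Without overlap, 16 were higher (42.1%, against 5.96% of all genes tested) and 0 lower. The list median relative to the control mean was 0.20, 0.23 and 0.26 in knockout replicates 1 to 3 and -0.03 to 0.01 in controls. Without knockout replicate 2 there were 20, where 9.34% of all genes were higher without overlap. Dcxr was the member that passed over all genes.

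The higher members spanned several of the known p53 outputs. Cdkn1a, the p21 inhibitor that blocks cyclin-dependent kinases, had 408, 415, 309 and 316 CPM in controls and 490, 624 and 500 in knockouts (a log2 fold change of 0.57, SE 0.13, adjusted p = 0.187 in edgeR). Pmaip1, the proapoptotic protein NOXA, had 54.5, 41.5, 60.2 and 44.8 CPM in controls and 79.0, 106 and 88.4 in knockouts (a log2 fold change of 0.87, SE 0.14, adjusted p = 0.0701 in edgeR). Fas, a death receptor, had 10.0, 10.5, 9.12 and 5.76 CPM in controls and 13.5, 20.8 and 18.2 in knockouts (a log2 fold change of 0.98, SE 0.23, adjusted p = 0.196 in edgeR). In all 3 genes each knockout library was above each control.

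Genes that restrain p53 or repair DNA were among the separated members as well. Mdm2, the ligase that degrades p53, had 170, 173, 179 and 170 CPM in controls and 195, 206 and 196 in knockouts (a log2 fold change of 0.20, SE 0.07, adjusted p = 0.332 in edgeR). Ercc5, a nuclease of nucleotide excision repair, had 61.7, 48.4, 55.8 and 59.6 CPM in controls and 78.1, 94.5 and 84.1 in knockouts (a log2 fold change of 0.60, SE 0.11, adjusted p = 0.0972 in edgeR). Abhd4, a lipid hydrolase, had a log2 fold change of 0.44, Ccng1 0.34, the receptor Eda2r 0.42, Aen 0.32 and Phlda3 0.31. Other standard targets lay near 0: Zmat3, Bbc3 (PUMA), Rrm2b and Sesn1 had 0.01, -0.05, 0.01 and -0.09 with overlapping groups. The transcript of p53 itself, Trp53, chosen after its value was seen, had a log2 fold change of 0.01. Of the 14 BCL2 family and caspase genes tested, 1 was higher (7.14%, against 5.96% of all genes) and 2 lower (14.3%, against 6.25%) without overlap.

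Cell cycle genes lay slightly lower. Of 28 tested G2 and M phase genes, 8 were lower without overlap (28.6%, against 6.25% of all genes) and 0 higher, with a median log2 fold change of -0.09. Ccna2, the cyclin of S and G2 phase, had 563, 546, 596 and 590 CPM in controls and 500, 460 and 496 in knockouts (a log2 fold change of -0.24, SE 0.07, adjusted p = 0.262 in edgeR). Kif11, a mitotic motor, and Cdk1, the mitotic kinase, had -0.24 and -0.20. Mki67 and Cdc20, mitotic markers, had 0.10 and 0.00 with overlapping groups. Of the 26 S phase genes tested, 5 were lower without overlap (19.2%, against 6.25%) and 0 higher, with a median of -0.06, and Uhrf1, which maintains DNA methylation at replication, had -0.26. The G2 and M list lay at -0.14, -0.03 and -0.12 in knockout replicates 1 to 3 and at -0.03 to 0.04 in controls, so that replicate 2 was next to the lowest control. Without that library 17 of the 28 G2 and M genes and 9 of the 26 S phase genes (34.6%) were lower without overlap, beside 10.0% of all genes. The G2 and M median was -0.06 without knockout replicate 1, and the S phase median was -0.04 without control replicate 3.

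Astrocyte markers differed in both directions. Of the 21 tested of 22, 11 were higher without overlap (52.4%, against 5.96% of all genes) and 2 lower (9.52%, against 6.25%), with a median of 0.12. Aqp4, the water channel of astrocyte endfeet, had 18.8, 21.8, 16.5 and 13.4 CPM in controls and 27.9, 27.9 and 34.7 in knockouts (a log2 fold change of 0.77, SE 0.17, adjusted p = 0.187 in edgeR). Aldoc, a glycolytic enzyme, had 229, 254, 248 and 269 CPM in controls and 324, 341 and 314 in knockouts (a log2 fold change of 0.39, SE 0.08, adjusted p = 0.145 in edgeR). Gja1, the gap junction protein connexin 43, and Gfap, the intermediate filament, were higher by 0.65 and 0.52 on the log2 scale without overlap.

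Sox9, a glial transcription factor, and Vim, the filament vimentin, which OPCs also express, were lower without overlap at -0.35 and -0.26. Aldh1l1, Slc1a2 and Slc4a4 had 0.06, 0.11 and 0.01 with overlapping groups. The summed level of the list was 4899 to 5161 CPM in controls and 4952 to 5222 in knockouts, and the ranges overlapped. Vim, its most abundant member, was lower in the knockouts, and the sum without Vim, taken after the values were seen, was 2857 to 2998 CPM in controls and 3212 to 3432 in knockouts, with no overlap. The list's median was 0.18 without knockout replicate 2 and 0.21 without replicate 3. In bulk RNA a change in the number of cells of a type and a change in RNA per cell cannot be told apart. Whether more astrocytes in the knockout cultures had a part in the higher members was not tested.

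OPC identity genes lay slightly lower as a list, while the share of separated members was near the background. The list's median log2 fold change was -0.11, and -0.06 without knockout replicate 2. Of 24 tested OPC genes of 25, Olig1 and Olig2 were lower without overlap (8.33%, against 6.25% of all genes) and 0 were higher. Olig2, the lineage factor, had 984, 815, 913 and 856 CPM in controls and 712, 508 and 748 in knockouts (a log2 fold change of -0.44, SE 0.12, adjusted p = 0.244 in edgeR). Olig1 had 3738, 3454, 3497 and 3444 CPM in controls and 3333, 2280 and 3220 in knockouts (a log2 fold change of -0.26, adjusted p = 0.394 in edgeR). In both, knockout replicate 2 was the lowest library. The list lay at -0.30 in that library, at -0.07 and -0.06 in replicates 1 and 3, and at -0.03 to 0.04 in controls. Pdgfra, Ptprz1 and Sox10 had log2 fold changes of -0.11, 0.04 and -0.13, and their CPM overlapped between the groups. In TPM, Pdgfra had 123 to 148 in controls and 110 to 121 in knockouts, with no overlap, while Ptprz1 and Sox10 overlapped. Cspg4, another OPC marker, had 16.8 to 24.4 TPM in controls and 9.11 to 18.4 in knockouts.

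Of the 29 myelin and mature oligodendrocyte genes only 15 passed the filter, and Mog, Mag, Mobp and Opalin were among the 14 that did not. Of the 15, 4 were higher without overlap (26.7%, against 5.96% of all genes) and 0 lower, with a median of 0.11. That median was 0.05 without control replicate 4, 0.06 without knockout replicate 1, and 0.18 without control replicate 2 or 3. Relative to the control mean, the list lay at 0.160, 0.106 and 0.107 in knockout replicates 1 to 3. In controls it lay at -0.043 to 0.111, with replicate 3 the highest, so the groups overlapped for the list. Enpp2, the secreted enzyme autotaxin, had 76.3, 96.1, 99.2 and 112 CPM in controls and 127, 162 and 130 in knockouts (a log2 fold change of 0.55, adjusted p = 0.207 in edgeR). Cryab, a small heat shock protein, had 23.8, 23.9, 25.4 and 21.1 CPM in controls and 32.6, 45.7 and 34.9 in knockouts (a log2 fold change of 0.69, adjusted p = 0.142 in edgeR). Mbp and Myrf, the myelin basic protein and the regulator of myelin genes, overlapped at -0.07 and 0.15. Of the 12 newly formed oligodendrocyte genes tested, 1 was higher and 1 lower without overlap (8.33% each, against 5.96% and 6.25%).

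Metabolic lists lay lower by small amounts. Of 23 cholesterol synthesis genes, all tested, 5 were lower without overlap (21.7%, against 6.25% of all genes) and 0 higher, with a median of -0.07, which was -0.12 without knockout replicate 2 and -0.03 without replicate 3. Srebf2, the transcription factor that drives the pathway, had 185, 164, 175 and 184 CPM in controls and 135, 96.8 and 156 in knockouts (a log2 fold change of -0.45, adjusted p = 0.270 in edgeR). Sqle, Lss and Hmgcs1 had -0.06, -0.03 and -0.03. Of 26 tested genes of the integrated stress response and serine synthesis, 5 were lower without overlap (19.2%, against 6.25%) and 0 higher, with a median of -0.14. Phgdh and Psat1, the first enzymes of serine synthesis, had -0.19 and -0.16, and Stc2 had -0.74. Without knockout replicate 2, 11 members of each of these lists were lower without overlap, where 10.0% of all genes were.

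The 13 mitochondrially encoded genes had a median log2 fold change of 0.20, with 4 higher without overlap (30.8%, against 5.96% of all genes) and 0 lower. mt-Cytb had 4325, 5071, 4970 and 5144 CPM in controls and 5562, 6257 and 5443 in knockouts (a log2 fold change of 0.24, adjusted p = 0.278 in edgeR). The median was 0.08 once a trend of fold change with transcript length was removed; the median log2 fold change was 0.07 over the shortest 2655 genes tested and -0.06 over the longest 2654. Relative to the control mean, the shortest genes lay at 0.12, 0.09, -0.08 and -0.09 in control replicates 1 to 4 and at 0.06, 0.18 and 0.03 in knockout replicates 1 to 3, so only replicate 2 lay outside the control range. Of the 18 interferon and antigen presentation genes tested, 3 (Tap1, Irf9 and Gbp3) were higher without overlap (16.7%, against 5.96%) and 0 lower, and the median was 0.34 with all libraries, 0.09 without knockout replicate 2, 0.17 without control replicate 1 and 0.22 without control replicate 2. Tap1, a peptide transporter, had 17.8, 18.6, 18.2 and 16.5 CPM in controls and 24.7, 34.7 and 29.0 in knockouts (a log2 fold change of 0.73, adjusted p = 0.117 in edgeR).

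**Figure D4:**
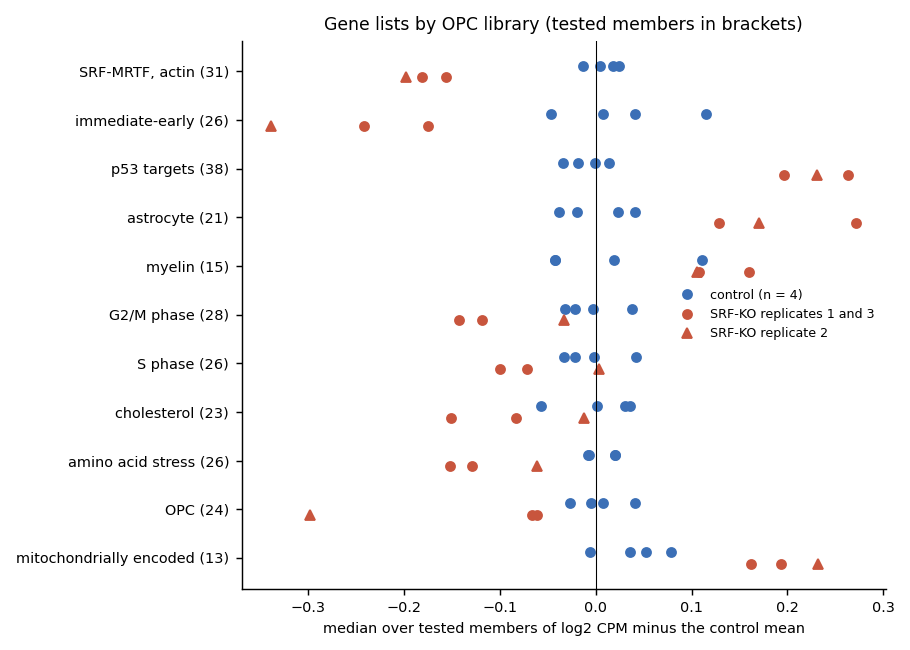
For 11 gene lists (tested members in brackets), the x axis is the median over members of log2 CPM minus the mean of the 4 controls; blue points are control libraries, red circles SRF-KO replicates 1 and 3 and red triangles SRF-KO replicate 2. The SRF-MRTF list lies at -0.20 to -0.16 and the p53 list at 0.20 to 0.26 in the knockouts, clear of the controls. SRF-KO replicate 2 is among the controls for the S phase, cholesterol and myelin lists. It is next to the lowest control for G2/M and lowest for the OPC list.

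Among genes with a mean log2 CPM of at least 3, an unadjusted p under 0.01 and no overlap, the 8 largest rises were Prrg4, Synpr, Pqlc3, Fas, Gsta4, Pmaip1, Ucp2 and Nxpe4, from 1.02 down to 0.82 on the log2 scale. Prrg4, a membrane protein with a Gla domain, had 5.89, 8.99, 5.60 and 4.21 CPM in controls and 12.5, 15.1 and 10.1 in knockouts. Pqlc3, a PQ-loop membrane protein, had 8.66, 11.9, 11.9 and 11.7 CPM in controls and 17.0, 22.5 and 25.9 in knockouts. Gsta4, a transferase that detoxifies lipid peroxides, had 10.7, 12.5, 12.0 and 9.54 CPM in controls and 17.4, 23.0 and 23.0 in knockouts. In each of these 3 every knockout was above every control, and the edgeR adjusted p of the 8 lay between 0.0701 and 0.262.

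The 8 largest falls by the same rule were Egr2, Tmem158, Arc, Tgfb1i1, Fam241a, Nr2f6, Crebzf and Galnt2, from -1.66 to -0.92. Tmem158, a membrane protein first found through Ras signalling, had 20.1, 16.3, 19.99 and 14.3 CPM in controls and 9.17, 2.03 and 10.1 in knockouts. Nr2f6, an orphan nuclear receptor, had 62.8, 50.03, 58.3 and 57.9 CPM in controls and 38.1, 14.1 and 36.3 in knockouts. Both were lowest in knockout replicate 2. Galnt2, which starts mucin-type glycosylation, had 75.4, 50.4, 74.9 and 64.0 CPM in controls and 28.9, 25.8 and 50.3 in knockouts, the last just below the lowest control. The 8 had edgeR adjusted p between 0.0559 and 0.266.

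The same contrast in OLs, 4 control libraries with a GFP lentivirus and 4 SRF-KO libraries with a Cre lentivirus, all from SRF-floxed/floxed mice and frozen on day 3 of differentiation, was read for the genes called in OPCs. Groups follow the titles, since the treatment tag of those SRF-KO libraries names the Cre virus but closes with the word control. The OL files were quantified over gene bodies and the OPC files over spliced transcripts, and virus and time also differ, so these cannot be told apart from stage. The difference between the effects was tested in edgeR as an interaction over all 15 libraries, where 18 of 16135 genes (0.112%) were called. With the replicate number added as a block, 0 were called, so the calls below hold only without it. Srf was less reduced in OLs (log2 -1.45) than in OPCs, a difference of 3.68 (SE 0.46, edgeR adjusted p = 0.00465). Gtf3c4 was the other called gene with a different effect: it had 0.28 in OLs against -0.67 in OPCs, a difference of 0.94 (SE 0.16, edgeR adjusted p = 0.0201). Leaving out each of the 15 libraries in turn, the difference of Srf was called in 15 fits and that of Gtf3c4 in 9. The 6 libraries without which Gtf3c4 missed the threshold were replicates 2 and 4 of the OPC controls, 1 and 2 of the OPC knockouts and 1 and 3 of the OL controls, with edgeR adjusted p from 0.0555 to 0.0811.

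For the other 7 the difference did not pass, which does not show that the effects were alike. Dcxr had 0.78 in OLs and 0.77 in OPCs, and Gm26917 -0.72 and -0.79. Ckmt1 had 1.34 in OLs, Lima1 -0.35, Egr1 -0.12, Mxd4 0.07 and Ptges3l -0.42, none of them called there. Of the largest rises in OPCs, Pqlc3 and Prrg4 were called in OLs, at 1.08 and 1.51 (edgeR adjusted p = 0.0121 for each), where 0.296% of genes were.

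**Figure D5:**
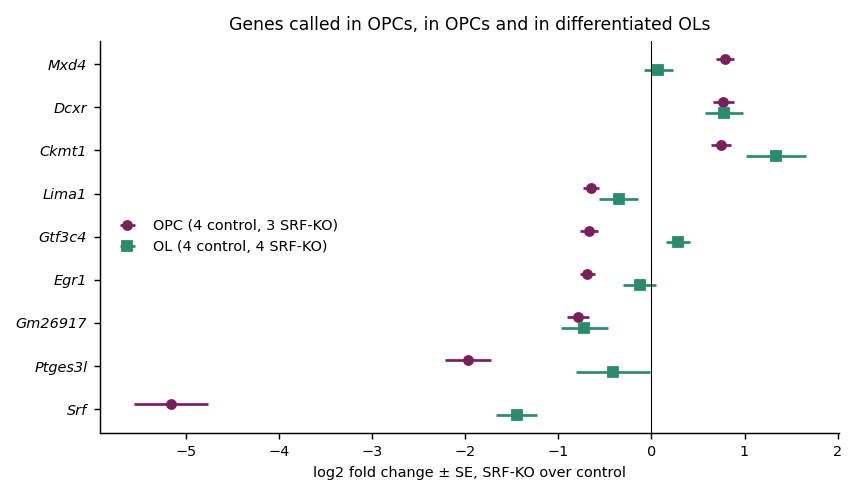
Log2 fold change of SRF-KO over control (x axis, bars are SE) for the 9 genes called in OPCs, in OPCs (purple circles) and in OLs (green squares). Dcxr and Gm26917 have nearly the same value in both, while Gtf3c4 lies at -0.67 in OPCs and 0.28 in OLs.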

How the data were processed

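PolyA RNA was made into Smart-seq2 libraries, which copy full-length cDNA without marking strand, and sequenced as single reads, per the labels' protocols. Per the submitters' processing notes, the authors used bcl2fastq, STAR and RSEM, of which no version is named; the builds GRCm38 and Rnor_6.0 appear there without a role. Each deposited file gives RSEM expected counts and TPM values for 45706 mouse gene IDs, the expected counts being the authors' estimates with multi-matching reads shared out, and the deposited TPM values being scaled by effective length. Symbols matched for 45143 IDs, and coordinates are from GENCODE M21.

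Expected counts were rounded and tested in edgeR 4.0.16 (R 4.3.3): filterByExpr, TMM, quasi-likelihood F-test, Benjamini-Hochberg at 0.05, on the 7 OPC libraries only. SE is derived from the test, as the size of the log2 fold change over the root of F. Alternatives used DESeq2 1.42.0, limma 3.58.1 (voom with sample quality weights), library totals, other filters, a length trend removed, a replicate block and each library left out. Log2 CPM of single libraries used a prior count of 2. The test was checked on simulated counts. Depth limits rare genes most; intervals cover counting error only.

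The members, the 29 lists and the tests were chosen with earlier results of these data known. Lists are described by counts and medians, with no test. Named are Srf, the called genes and the 8 largest rises and falls (unadjusted p under 0.01, mean log2 CPM of at least 3, no overlap). The rule also lets each list give its most abundant member, where a level was needed, and up to 2 of smallest unadjusted p under 0.05, and not every gene it allows is named. Other genes were named after their values were seen, to show members that did not differ.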

Additional observations from a re-analysis of the deposited data

Results flagged for a closer look

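In 5 named genes 1 control library was far from the other 3, by Dixon's criterion for 4 values, which chance meets in about 1 of 20 groups; 81 groups of controls were examined. Control OPC replicate 1 was low for Pqlc3 (8.66 CPM) and mt-Atp6 (3240 CPM) and high for Arc (15.2 CPM) and Fam241a (15.9 CPM). Control OPC replicate 2 was low for Stc2 (5.45 CPM). In each of the 5, all 3 knockout libraries were still on one side of all 4 controls.

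The effect of the knockout on 2 called genes differed between OLs and OPCs in the interaction test, though not once the replicate number was added as a block. For Srf the difference, OL minus OPC, was 3.68 on the log2 scale, and for Gtf3c4 it was 0.938. The stages were quantified in different ways, so stage and quantification cannot be told apart.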

How the results depend on the processing

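The 9 called genes, 3 higher and 6 lower, became 139 (70 and 69) in DESeq2, 101 (51 and 50) with no filter, 29 (19 and 10) with the length trend removed and 14 with voom and quality weights (7 higher). Library totals gave 6 higher and a minimum average of 50 counts gave 5. The original 9 were all still called in each of these. Leaving out 1 library gave 1 to 4 calls, 0 to 1 higher (538 to 841 at an unadjusted edgeR p under 0.05) and 1 to 3 lower, and kept 1 to 4 of the 9. The lowest total, 1, was that of 4 fits, those lacking SRF-KO replicate 3 or control replicate 1, 2 or 4; the highest was that lacking SRF-KO replicate 2. In any single alternative run, 22 to 26 of 26 list medians kept their sign, and the lists that changed differed between runs. With 1 library left out, changes of sign occurred for newly formed oligodendrocyte, neuron, MYC and MXD, TFIIIC and polymerase III, YAP-TEAD and sex-linked genes. Fewer samples in these fits is part of their construction; otherwise the cause was not tested.

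With the replicate number as a block, edgeR called 2 genes, 1 higher and 1 lower, and kept 1 of the 9 (Srf). Deviations of same-numbered libraries correlated at 0.0144, 0.049 and -0.0157. SRF-KO OPC replicates 1 and 2 correlated best with the controls of the same number, and replicate 3 with control replicate 4 (0.0509). All these values are near 0, so they cannot decide whether the numbers pair the samples.

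The interaction with stage, 18 genes, became 88 with no filter, 0 with the replicate block (1078 of 16135 at an unadjusted edgeR p under 0.05) and 4 to 134 without 1 library, the lowest lacking SRF-KO OPC replicate 2 and the highest lacking SRF-KO OL replicate 4.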

Other observations

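Of 16 families taken by symbol after values were seen, 4 are described here for their separated members, while 0 of 47 complex I genes and 0 of 80 ribosomal protein genes were separated in either direction. Of 9 tested cathepsins, the proteases of lysosomes, 5 were higher without overlap (all genes tested, 5.96%), with a median log2 fold change of 0.24. Ctsf had 30.5, 35.2, 33.1 and 31.0 CPM in controls and 43.2, 52.97 and 49.1 in knockouts, and Ctsz had 54.9, 48.5, 47.5 and 55.3 against 73.8, 72.1 and 71.0 (edgeR adjusted p = 0.111 and 0.117). Of the 4 Id genes, inhibitors of bHLH factors such as the OLIG proteins, Id1 and Id3 were higher without overlap (all genes tested, 5.96%). Id3 had 47.0, 48.2, 42.5 and 42.4 CPM in controls and 69.9, 95.6 and 65.5 in knockouts (log2 0.78, edgeR adjusted p = 0.0775).

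Of 11 tested SR splicing factors, 5 were lower without overlap (all genes, 6.25%), with a median of -0.14. Srsf2 had 598, 496, 565 and 539 CPM in controls and 438, 299 and 432 in knockouts, and Srsf3 had 725, 733, 719 and 717 against 655, 655 and 653. Of 20 hnRNP genes, which package nascent RNA, 4 were lower without overlap and the median was -0.17. Hnrnpab had 1316, 1152, 1272 and 1311 CPM in controls and 1004, 575 and 828 in knockouts, lowest in replicate 2, and the family lay at -0.36 in that library against -0.10 and -0.07 in replicates 1 and 3.

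Cds1, which makes CDP-diacylglycerol for phospholipid synthesis, had 14, 16, 20 and 24 reads in control replicates 1 to 4 and 0 in each knockout. Its control level was 16.6-fold above a floor of 3 reads over the pooled knockouts (edgeR adjusted p = 0.0867, not called). The 95% interval of the pooled knockout level, for counting error only, reached up to 7.59% of control. Cds1 was chosen after its values were seen.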
